A study of Mus musculus with 10 samples.

Results

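The genes described here were higher in mouse embryonic stem cells brought back to serum after a long culture in 2i than in the same kind of cells before they had met 2i. They were chosen from the measured levels. Reads per gene were scaled to a common library total (CPM), and a gene was taken when its lowest CPM in the serum return libraries was at least 1 and at least 1.8 times its highest CPM in the original serum libraries. The rule then left out Rn45s, genes whose symbols begin with Zscan4, Zfp9, Hox, Col, Lam, Slc, Wnt, Fzd, Rhox, Syc or Tex, and 9 single genes, which together removed 23 genes that passed the ratio. It found 169 of 24015 genes. By the same ratio turned round, 75 genes were lower in the serum return. Because the serum return and serum libraries chose the members, their levels there are a description and were not tested. The tests compare only 2i groups, which the rule did not read. The spread behind each p-value was estimated over all 10 libraries, however, and so also from the libraries that chose the members. A fit of only the 6 libraries grown last in 2i is given as an alternative.

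The measurements were RNA-seq read counts of whole cultures, with 2 libraries in each of 5 groups. All groups were embryonic stem cells from the inner cell mass that carry a Wnt/β-catenin reporter, grown on gelatin with LIF (leukaemia inhibitory factor) and split every 48 h. The serum group was the starting culture in serum and LIF. The first 2i group had 5 to 6 passages in 2i, a medium in which GSK3 is inhibited (3 µM) and the ERK pathway is inhibited with PD (1 µM). The long 2i group had more than 13 such passages, and the serum return group had more than 13 passages in 2i and then 6 in serum. The second 2i group had 13 passages in 2i, 6 in serum and 4 to 5 again in 2i. The libraries of a group differ by the title prefix LEM or MLE, taken as replicates 1 and 2, which the labels do not explain. No label says that the second 2i cells were grown from the serum return cells that were sampled. Nor does any say that the 2 libraries of a group came from separate cultures. Each p-value therefore sets a difference only against how far the libraries of a pair lay apart, estimated over all 5 groups. That distance may be technical.

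Serum with LIF keeps mouse embryonic stem cells self-renewing while differentiation signals through ERK stay active. The inhibitors of 2i block ERK signalling and stabilise β-catenin, and 2i cultures are known for a uniform naive state and for loss of DNA methylation, which germline promoters depend on for silencing. Several members belong to the integrated stress response. In that pathway, kinases that sense amino acid shortage, misfolded protein, haem shortage or viral RNA phosphorylate the initiation factor eIF2α, overall translation falls, and the transcription factors ATF4 and then CHOP switch on genes for amino acid supply, redox balance and cell death.

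Libraries held 16809070 to 27766338 reads assigned to genes, with the most in serum return replicate 1 and the fewest in long 2i replicate 1, and TMM scaling factors lay between 0.988 and 1.01. The pluripotency factor Pou5f1 was at 1167 and 1213 CPM in the serum return and at 1185 and 1212 CPM in serum. The serum return libraries differed in ribosomal precursor RNA: Rn45s, which is no member, had 2506 CPM in replicate 1 and 15408 CPM in replicate 2. Haemoglobin genes Hbb-b1 and Hbb-bh1 were at 0 in every library. The summed level of 20 primitive endoderm markers was 1565 to 1574 CPM in the serum return and 1401 to 1497 CPM in serum. In 9 of its 16 tested genes both serum return libraries lay above both serum libraries, and in 1 below. Over all tested genes these shares were 35.8% and 28.6%, and the median log2 ratio of the 16 genes was 0.26. The summed level of 13 fibroblast and feeder markers was 1607 to 1651 CPM in the serum return and 1481 to 1663 CPM in serum. Of the 7 tested genes of the fibroblast list, both serum return libraries lay above both serum libraries in 4 and below in 0. The shares over all tested genes were 35.8% and 28.6%. The median log2 ratio of the 7 genes was 0.71. The sum of 16 trophectoderm markers was lower, at 60.1 to 67.2 CPM in the serum return and 93.0 to 96.2 CPM in serum. The list did not fall as a whole. Of its 12 tested genes, both serum return libraries lay above both serum libraries in 3 and below in 4. Their median log2 ratio was 0.11. The part of these shifts in the members' levels was not tested. In RNA from whole cultures, more cells that express a gene and more of its RNA per cell cannot be told apart.

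The ratio of the lowest serum return value to the highest serum value ran from 1.8 to 9.80 with a median of 2.13, and 109 members reached 2 and 18 reached 3. The median log2 ratio of group means was 1.28 over the members, with nothing added to the means. Over all 14220 tested genes it was 0.03 with 0.1 CPM added to each mean, as was done for every list and for the X chromosome. Over those tested genes, both serum return libraries lay above both serum libraries for 35.8% and below both for 28.6%. Just inside the threshold, Phldb2 had 3.71 and 3.94 CPM in the serum return against 1.61 and 2.06 CPM in serum. Just outside it, Zfp296 had 49.5 and 55.9 CPM in the serum return against 27.5 and 25.4 CPM in serum, a ratio that fell just short of 1.8. Many members were weakly expressed, and 52 were under 2 CPM in at least 1 serum return library.

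The working name of the set was genes left raised after return to serum. The members' 2i levels were of several kinds. Every one of the 6 libraries grown last in 2i lay above both serum libraries for 72 members. For 70 members the long 2i mean was below the serum mean, so these genes were not above serum in long 2i. In 68 members both serum return libraries exceeded all 6 libraries grown last in 2i. In 27 members they lay below all of those libraries, and in 74 they lay among them. The group with the highest mean was the serum return for 78 members, first 2i for 38, second 2i for 27 and long 2i for 26. These counts describe the members only, since no share over all tested genes stands beside them. Those that use the serum return also rest on values that the rule required to be high. The name used here, genes raised in the serum return, states only what the rule measured.

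**Figure D1:**
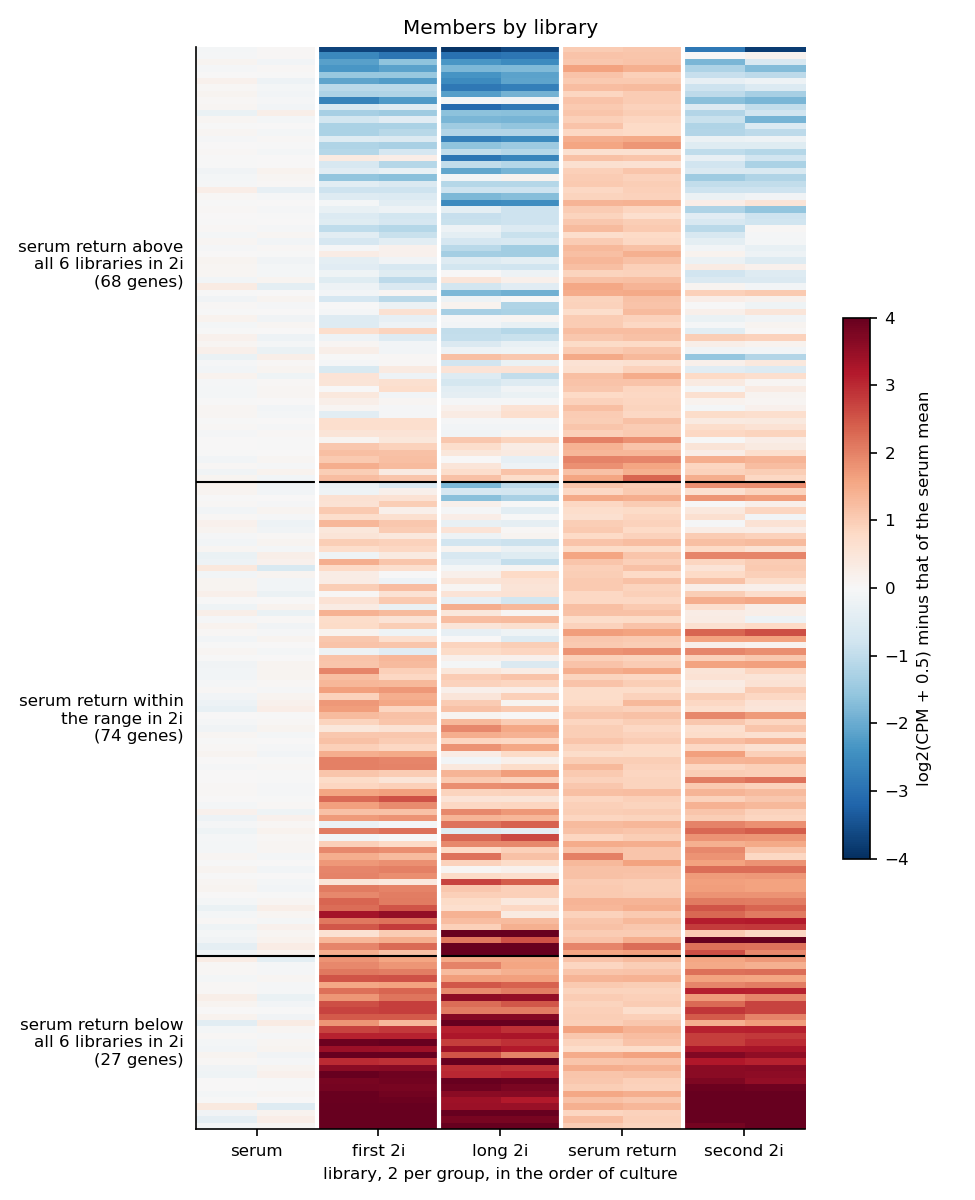
Heat map of the 169 members (rows) in the 10 libraries (columns), as log2(CPM + 0.5) minus the mean of the serum libraries, with colours cut at 4 either side of 0. The members are in 3 blocks, with 68 whose serum return libraries exceed all libraries grown last in 2i, 74 among them and 27 below them.

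Of 59 genes of the integrated stress response, 14 were members: the transcription factors Ddit3 (CHOP) and Atf3, the stress-induced chromatin protein gene Nupr1, the pseudokinase gene Trib3, the glutathione-degrading enzyme gene Chac1, the mTORC1 inhibitor gene Ddit4, the metabolic enzyme genes Cth, Pck2 and Aldh1l2, the lipoprotein receptor gene Vldlr, the secreted factor genes Stc2, Adm2 and Gdf15, and the pro-apoptotic gene Hrk. That list was written after the members' values were seen. A further gene of the list met the ratio and the minimum level and was left out by symbol. Since ATF4 and CHOP, paired with C/EBP-family proteins, bind a composite element, the 250 bases before each start site in the RefSeq promoter table (GRCm38.p6) were searched for TTGCATCA on both strands, that is, TTGCATCA or TGATGCAA. The exact motif was in a promoter of 4 of the 12 stress-response members that had a promoter in the table, Atf3, Chac1, Nupr1 and Vldlr. It was in 7 of 36 stress-response genes that are no members, 1 of 124 other members, 70 of 11191 tested genes (0.626%) and 260 of all 32851 promoters (0.791%). A match describes the letters and is no evidence of binding. The 4 promoters are shown because they are the stress-response members whose promoter carries the motif, which is in capitals, with its first base 110, 193, 110 and 200 bases before the start site in the order given. The Atf3 sequence is chr1:191183334-191183583, minus strand, the Chac1 sequence chr2:119350992-119351241, plus strand, the Nupr1 sequence chr7:126625471-126625720, minus strand, and the Vldlr sequence chr19:27216770-27217019, plus strand.
Atf3: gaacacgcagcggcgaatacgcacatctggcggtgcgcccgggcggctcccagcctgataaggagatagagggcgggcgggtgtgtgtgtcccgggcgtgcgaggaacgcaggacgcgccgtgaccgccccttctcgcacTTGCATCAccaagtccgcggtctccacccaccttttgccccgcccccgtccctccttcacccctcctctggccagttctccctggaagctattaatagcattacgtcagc
Chac1: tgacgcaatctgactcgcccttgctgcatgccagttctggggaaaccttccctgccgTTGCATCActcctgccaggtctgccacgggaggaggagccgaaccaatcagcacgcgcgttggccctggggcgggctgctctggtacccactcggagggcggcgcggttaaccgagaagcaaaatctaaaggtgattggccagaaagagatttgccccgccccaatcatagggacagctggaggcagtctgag
Nupr1: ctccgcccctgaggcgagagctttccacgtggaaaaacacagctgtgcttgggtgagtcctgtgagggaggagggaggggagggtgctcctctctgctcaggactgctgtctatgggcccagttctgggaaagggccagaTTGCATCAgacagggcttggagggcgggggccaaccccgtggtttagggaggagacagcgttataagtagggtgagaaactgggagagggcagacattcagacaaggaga
Vldlr: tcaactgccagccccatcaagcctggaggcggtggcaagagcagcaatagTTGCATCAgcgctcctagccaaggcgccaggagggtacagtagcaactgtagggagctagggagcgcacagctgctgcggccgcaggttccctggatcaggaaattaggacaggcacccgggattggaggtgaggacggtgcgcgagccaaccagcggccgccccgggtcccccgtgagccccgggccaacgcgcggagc

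Chac1, whose product breaks down glutathione, had 55.7 and 55.8 CPM in the serum return against 19.4 and 19.4 CPM in serum. It had 18.0 and 20.6 CPM in first 2i, 5.24 and 4.79 CPM in long 2i and 37.7 and 40.5 CPM in second 2i. The long 2i libraries were the lowest of all, the second 2i libraries stood between the first 2i and the serum return libraries, and no group overlapped another except first 2i with serum. By edgeR's quasi-likelihood test with Benjamini-Hochberg adjustment over all genes, used for every adjusted p below, the log2 fold change of long against first 2i was -1.95 ± 0.11 (SE; adjusted p = 1.22e-11). Second 2i was 2.05-fold higher than first 2i (adjusted p = 1.35e-08) and 7.89-fold higher than long 2i (adjusted p = 7.57e-15).

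Nupr1 had 59.8 and 59.8 CPM in the serum return against 28.0 and 23.9 CPM in serum. Its levels were 102 and 107 CPM in first 2i, 27.7 and 29.3 CPM in long 2i and 123 and 124 CPM in second 2i. Long 2i overlapped serum, and the serum return stood between it and the other 2i groups. The log2 fold change was -1.87 ± 0.07 for long against first 2i (adjusted p = 1.57e-14), 0.26 ± 0.06 for second against first 2i (adjusted p = 0.00281) and 2.13 ± 0.07 for second against long 2i (adjusted p = 2.05e-15, edgeR). Pck2, the mitochondrial enzyme that makes phosphoenolpyruvate, had 133 and 144 CPM in the serum return against 56.3 and 64.8 CPM in serum. In the 2i groups it had 119 and 116 CPM in first 2i, 35.8 and 33.0 CPM in long 2i and 141 and 148 CPM in second 2i. Its long 2i libraries were the only ones below serum, and its log2 fold change of long against first 2i was -1.78 ± 0.07 (adjusted p = 5.72e-14).

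Cth, the enzyme that releases cysteine from cystathionine, had 90.1 and 89.3 CPM in the serum return against 39.8 and 40.1 CPM in serum. It had 159.6 and 146 CPM in first 2i, 68.7 and 63.3 CPM in long 2i and 132 and 134 CPM in second 2i. All 6 libraries grown last in 2i were above serum, and the serum return lay above long 2i and below the other 2i groups. Long 2i was lower than first 2i by a log2 fold change of -1.22 ± 0.06 (adjusted p = 8.75e-13), and second 2i was 2.04-fold higher than long 2i (adjusted p = 1.74e-11). Second 2i was called lower than first 2i (log2 fold change -0.19 ± 0.06, adjusted p = 0.0133), but not without first 2i replicate 1 (adjusted p = 0.201), second 2i replicate 1 (0.0731) or second 2i replicate 2 (0.0613). Aldh1l2, a mitochondrial enzyme of folate metabolism, had 7.28 and 5.56 CPM in the serum return against 2.60 and 2.78 CPM in serum. It stood at 12.4 and 12.2 CPM in first 2i, 3.81 and 4.79 CPM in long 2i and 5.32 and 5.73 CPM in second 2i. It was the stress-response member with the largest fall between first and second 2i, with a log2 fold change of -1.14 ± 0.15 (adjusted p = 5.85e-06).

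The transcription factors had calls that depended on the library or the test in some comparisons. Ddit3 had 51.5 and 48.9 CPM in the serum return against 23.3 and 24.1 CPM in serum. It was at 54.0 and 48.6 CPM in first 2i, 43.2 and 42.9 CPM in long 2i and 56.7 and 61.4 CPM in second 2i, so that the serum return overlapped first 2i and every 2i library was above serum. Second 2i was 1.39-fold higher than long 2i (adjusted p = 1.44e-05). Ddit3 was called lower in long than in first 2i (log2 fold change -0.26 ± 0.07, adjusted p = 0.00477), a call lost without first 2i replicate 1 (adjusted p = 0.0853). It was called higher in second than in first 2i (log2 fold change 0.22 ± 0.07, adjusted p = 0.0218), a call lost with DESeq2 (adjusted p = 0.0607), without first 2i replicate 2 (0.226) and without second 2i replicate 2 (0.206). Atf3 had 5.22 and 5.65 CPM in the serum return against 2.55 and 1.85 CPM in serum. Its levels were 1.83 and 1.37 CPM in first 2i, 0.892 and 0.958 CPM in long 2i and 4.89 and 4.63 CPM in second 2i, which left second 2i clear of the earlier 2i groups. Second 2i was 2.98-fold higher than first 2i (adjusted p = 1.43e-05) and 5.16-fold higher than long 2i (adjusted p = 1.39e-07). The lower level in long than in first 2i (adjusted p = 0.0313) was not called with DESeq2 (adjusted p = 0.0945), without first 2i replicate 1 (0.216), without long 2i replicate 1 (0.104) or without long 2i replicate 2 (0.0871). The messenger RNA of Atf4, which is no member, was at 688 and 643 CPM in the serum return and at 803 and 736 CPM in serum.

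Vldlr, a receptor for triglyceride-rich lipoproteins, had a serum return to serum ratio of 4.33, among the highest of the members. It had 8.68 and 8.48 CPM in the serum return against 1.65 and 1.96 CPM in serum. In 2i it had 4.28 and 4.85 CPM in first 2i, 1.84 and 1.33 CPM in long 2i and 5.76 and 5.47 CPM in second 2i, so that the serum return libraries were above all others and long 2i overlapped serum. Its log2 fold change was -1.53 ± 0.21 for long against first 2i (adjusted p = 3.09e-06) and 1.84 ± 0.21 for second against long 2i (adjusted p = 2.42e-07). Hrk, a BH3-only activator of cell death, had 26.0 and 29.3 CPM in the serum return against 8.46 and 8.13 CPM in serum. All 6 libraries grown last in 2i were below serum, with 3.29 and 3.09 CPM in first 2i, 2.38 and 2.72 CPM in long 2i and 5.81 and 5.73 CPM in second 2i. Second 2i was 1.82-fold higher than first 2i (adjusted p = 0.00023).

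Adm2, a secreted peptide related to adrenomedullin, was nearly silent in long 2i, with 1 read over both libraries against 51 reads in first 2i and 67 in second 2i. It had 8.03 and 8.20 CPM in the serum return and 3.31 and 2.99 CPM in serum, so that both groups in serum were above all 2i libraries. Long 2i differed from first 2i (adjusted p = 1.21e-06) and second 2i from long 2i (adjusted p = 1.16e-07). Trib3, Ddit4 and Stc2 followed the same order between long 2i and the others: all were lower in long than in first 2i and higher in second than in long 2i, with second against long folds of 1.88, 1.36 and 3.26 (adjusted p = 1.04e-09, 2.1e-05 and 1.3e-09). Gdf15, a secreted stress cytokine, had 7.56 and 9.12 CPM in the serum return against 2.74 and 3.45 CPM in serum. In 2i it lay at 6.54 and 4.12 CPM in first 2i, 5.41 and 7.35 CPM in long 2i and 6.35 and 6.63 CPM in second 2i, with overlapping groups and no call (adjusted p between 0.271 and 0.905). Without first 2i replicate 1, its higher library of that group, Gdf15 was called higher in long than in first 2i (adjusted p = 0.0244) and in second than in first 2i (0.0327).

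**Figure D2:**
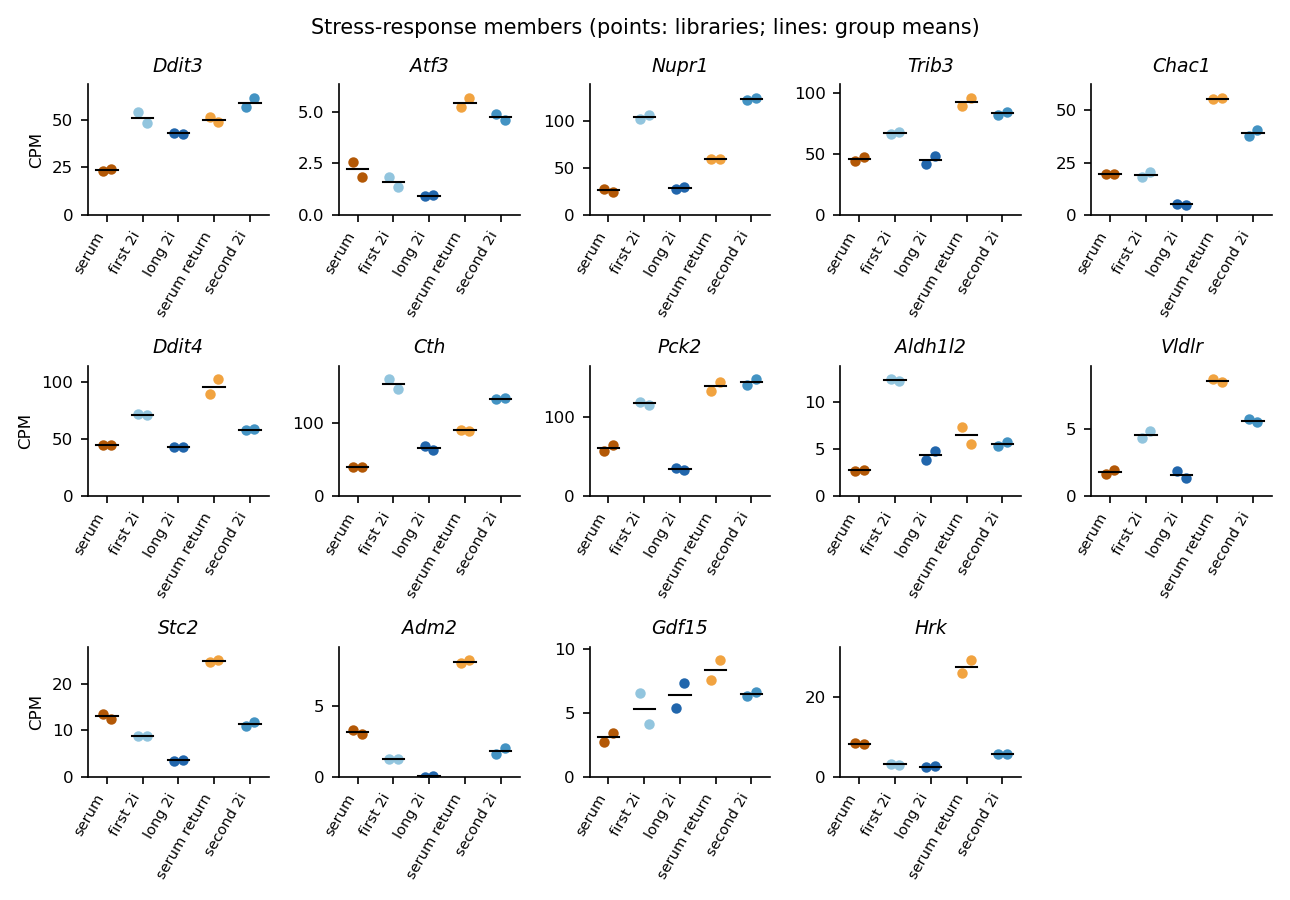
CPM (linear axes from 0) of the 14 members of the integrated stress response, a panel for each gene, with a point for every library and a line for the mean of its group. Chac1, Nupr1 and Pck2 have their lowest 2i levels in long 2i, and Hrk is lower in all 2i groups than in serum.

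Across the 14 stress-response members, long 2i was lower than first 2i in 12 and higher in 0, second 2i was higher than first 2i in 8 and lower in 3, and second 2i was higher than long 2i in 12 and lower in 0. Over all tested genes, long 2i was called lower than first 2i for 30.8% and higher for 30.4%, second 2i higher than first 2i for 18.1% and lower for 19.6%, and second 2i higher than long 2i for 28.1% and lower for 28.4%. Without first 2i replicate 1, 10 were lower and 1 higher in long than in first 2i. Of the whole list, 58 genes were tested. Of these, 38 were lower and 10 higher in long than in first 2i, 26 higher and 6 lower in second than in first 2i, and 42 higher and 5 lower in second than in long 2i. The list's median log2 fold changes were -0.33, 0.15 and 0.45 in these comparisons, against -0.00, 0.00 and -0.01 over all tested genes. Outside the members, both serum return libraries exceeded both serum libraries in 38 of 44 tested genes of the list, against 35.8% of all tested genes. Asns, asparagine synthetase and no member, had 654 and 639 CPM in the serum return against 397 and 374 CPM in serum, a difference under the ratio of the rule. Chaperones of the endoplasmic reticulum, targets of a separate branch of the response to misfolded protein, went the other way: of 16 such genes, also listed after the values were seen, both serum return libraries were below both serum libraries in 12 and above in 1, against 28.6% and 35.8% of all tested genes. Among them Hspa5 (BiP) had 492 and 489 CPM in the serum return against 686 and 644 CPM in serum.

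**Figure D3:**
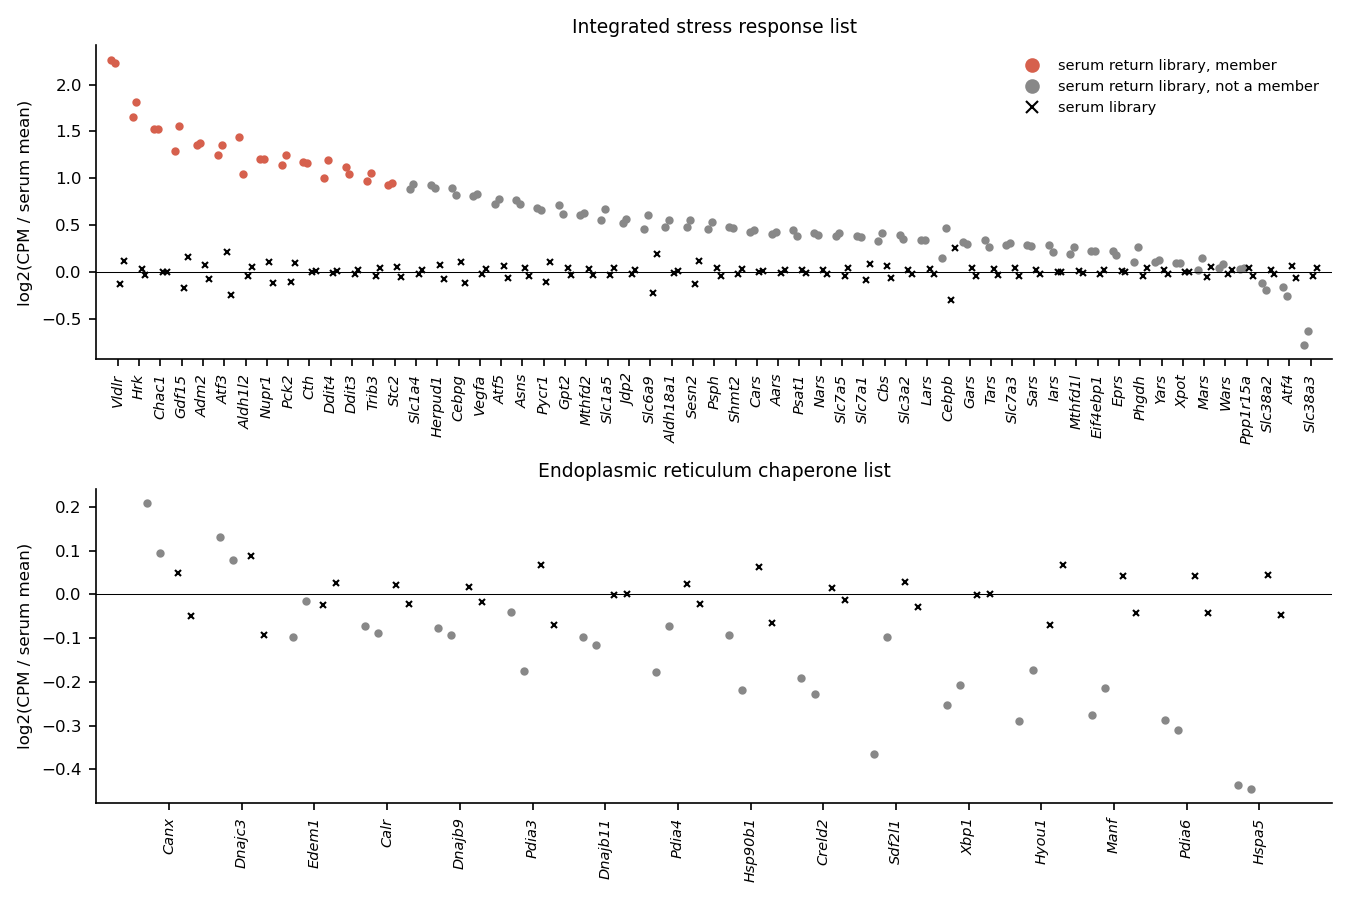
Log2 of each gene's CPM over its serum mean for the integrated stress response list and the endoplasmic reticulum chaperones, with serum return points to the left of serum crosses for each gene. Most stress-response genes lie above the serum mean in the serum return, and 12 of the 16 chaperones lie below both serum libraries.

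Among all 169 members, long 2i was lower than first 2i in 81 (47.9%), higher in 35 (20.7%) and not called in 53. The median log2 fold change was -0.72 over the members, and 57 of 169 were at least 2-fold lower with 22 at least 2-fold higher, against 1466 and 934 of the 14220 tested genes. Second 2i was higher than first 2i in 42 members (24.9%) and lower in 35 (20.7%), with a median of 0.01. Second 2i was higher than long 2i in 81 members (47.9%), lower in 35 (20.7%) and had a median of 0.58. The shares lower in long than in first 2i and higher in second than in long 2i stand above the backgrounds of 30.8% and 28.1%. The shares in the opposite directions, 20.7% each, stand below the backgrounds of 30.4% and 28.4%. Between second and first 2i, the share higher is above its background of 18.1% by less, and the share lower is near its background of 19.6%. These comparisons share the first, long or second 2i libraries and are not independent of each other. All members passed the filter on low counts over all 10 libraries, which serum return reads help to pass. In a fit of only the 6 libraries grown last in 2i, 159 members were tested, and 82 of them were lower and 34 higher in long than in first 2i, with backgrounds of 32.3% and 31.3%. In that fit 42 were higher and 35 lower in second than in first 2i, with backgrounds of 18.6% and 20.4%, and 79 were higher and 35 lower in second than in long 2i, with backgrounds of 29.4% each.

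**Figure D4:**
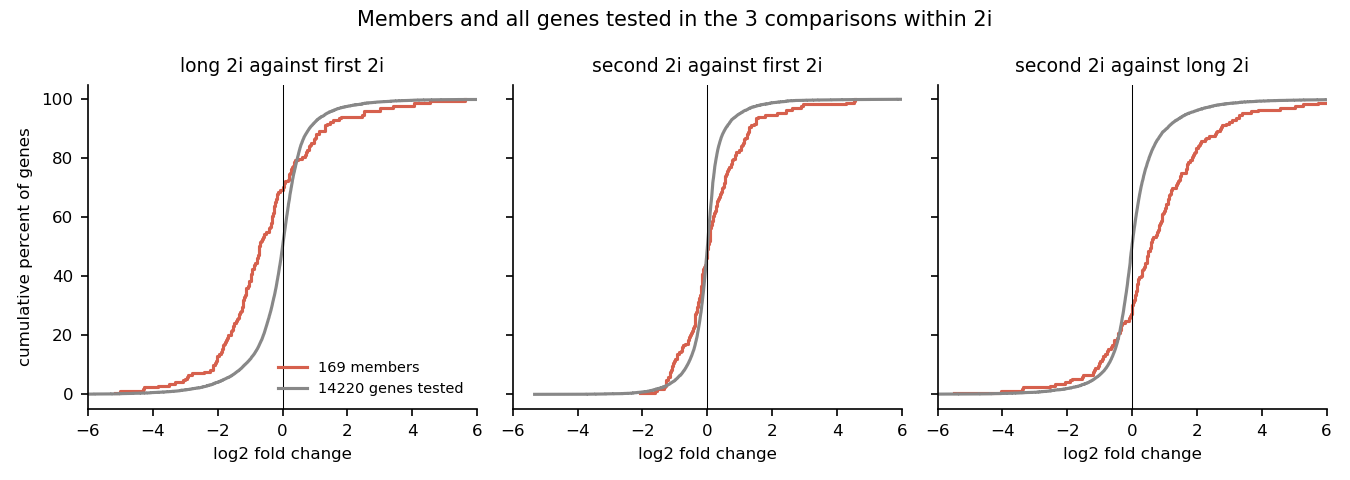
Cumulative share of genes by log2 fold change in the 3 comparisons among 2i groups, for the 169 members and for all 14220 tested genes. Over most of its length the members' curve lies left of the other for long against first 2i (medians -0.72 and -0.00), and right of it for second against long 2i (medians 0.58 and -0.01).

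Long 2i held both high peaks and the near-absence of some members. Efhc2, an EF-hand protein gene on the X chromosome, had 1.76 and 1.76 CPM in the serum return against 0.567 and 0.669 CPM in serum. It had 1.22 and 1.76 CPM in first 2i, 74.6 and 74.7 CPM in long 2i and 1.79 and 1.47 CPM in second 2i, so that long 2i stood far above every other library. Its log2 fold change was 5.64 ± 0.13 for long against first 2i (adjusted p = 7.34e-18) and -5.50 ± 0.13 for second against long 2i (adjusted p = 1.38e-17). Pou2f3, a POU-domain transcription factor that defines tuft cells, had 4.39 and 5.42 CPM in the serum return against 0.473 and 1.03 CPM in serum. It had 4.37 and 5.49 CPM in first 2i, 25.3 and 29.1 CPM in long 2i and 5.27 and 5.10 CPM in second 2i, so that the serum return overlapped first and second 2i and long 2i was 5.52-fold higher than first 2i (adjusted p = 2.45e-11). Nt5e, the ecto-nucleotidase CD73, and Calml4, a calmodulin-like protein gene, were 10.6-fold and 8.03-fold higher in long than in first 2i (adjusted p = 1.61e-09 and 1.02e-09).

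At the other end, G0s2, an inhibitor of triglyceride lipase, had 11.8 and 11.3 CPM in the serum return against 4.91 and 4.94 CPM in serum. It had 6.40 and 6.08 CPM in first 2i, 0.238 and 0.373 CPM in long 2i and 3.80 and 2.68 CPM in second 2i. The long 2i libraries were lowest by a wide margin, with a log2 fold change of -4.31 ± 0.29 against first 2i (adjusted p = 9.35e-11). Ubap1l had 7 reads over both long 2i libraries, against 121 in first 2i and 178 in second 2i, and was 23.7-fold higher in second than in long 2i (adjusted p = 4.64e-10). Dleu7 had 2 reads in long 2i and 50 in first 2i (adjusted p = 5.51e-06), and Mroh7 had 4 and 55 (adjusted p = 7.17e-06). All of these were higher in the serum return than in any library grown last in 2i, with 2.77 and 3.33 CPM for Dleu7 and 4.14 and 4.63 CPM for Mroh7.

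Germline genes were represented by 6 members: Brdt, a testis bromodomain protein, Hormad1, of the meiotic chromosome axis, Taf7l, a germ-cell form of a TFIID subunit, Cyct, the testis cytochrome c, Tuba3a, an α-tubulin of testis, and Mageb4, of the MAGE family. A further 2 genes of the germline list met the ratio and the minimum level and were left out by symbol. Brdt had 8.57 and 7.92 CPM in the serum return against 4.06 and 3.30 CPM in serum. In 2i it had 3.06 and 2.30 CPM in first 2i, 0.714 and 1.54 CPM in long 2i and 14.3 and 14.6 CPM in second 2i. Second 2i stood above every other library and was 5.43-fold higher than first 2i (adjusted p = 2.17e-09). Taf7l had 6.34 and 5.37 CPM in the serum return against 1.51 and 2.32 CPM in serum. It had 1.88 and 2.01 CPM in first 2i, 5.06 and 4.58 CPM in long 2i and 0.326 and 0.578 CPM in second 2i, the reverse of Brdt among the 2i groups. Its second 2i level was lower than that of long 2i by a log2 fold change of -3.37 ± 0.31 (adjusted p = 1.3e-08).

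Hormad1 had 6.41 and 6.25 CPM in the serum return against 1.84 and 2.11 CPM in serum. It had 4.28 and 3.78 CPM in first 2i, 8.86 and 8.84 CPM in long 2i and 6.14 and 6.63 CPM in second 2i, all above serum, and was 2.19-fold higher in long than in first 2i (adjusted p = 1.74e-06). Tuba3a had 18.8 and 19.7 CPM in the serum return against 7.18 and 7.77 CPM in serum, and was 5.66-fold higher in long than in first 2i (adjusted p = 9.53e-14) and 4.45-fold higher in second than in first 2i (adjusted p = 1.03e-11). Cyct had 6.48 and 6.25 CPM in the serum return against 2.55 and 3.04 CPM in serum, and was 4.21-fold higher in second than in long 2i (adjusted p = 2.93e-08). Mageb4, with 3.67 and 3.10 CPM in the serum return against 1.32 and 1.18 CPM in serum, had at most 31 reads in any 2i group. The 6 germline members therefore had no common order among the 2i groups. Long 2i was higher than first 2i in 4 and lower in 2, against 30.4% and 30.8% of all tested genes. Second 2i was higher than first 2i in 4 and lower in 1, against 18.1% and 19.6%. The Mageb4 call between long and first 2i (adjusted p = 0.0483) was lost with DESeq2 (0.0812), in the fit of libraries grown last in 2i (0.0686), without first 2i replicate 1 (0.0906) or 2 (0.162), and without long 2i replicate 1 (0.224). Its second against first 2i difference was not called (adjusted p = 0.0727), but was without second 2i replicate 1 (0.00446), with a replicate block (0.0302) and with no filter on low counts (0.0233). Of 74 tested germline genes, 31 were lower and 21 higher in long than in first 2i, the second of these counts being near the background. Both serum return libraries lay above both serum libraries in 55, or 49 of the 68 that are no members, against 35.8% of all tested genes.

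Usp17lb, Usp17le and Obox6 are described together, a grouping made after their values were seen. Each had at most 3 reads in long 2i, which is not particular to them. Other members were as low there, among them Adm2 (1 read), Dleu7 (2), Efcab4b (1) and Cdk15 (0). Usp17lb and Usp17le, neighbouring near-identical deubiquitinase genes whose reads may be shared, include the member with the highest ratio, Usp17lb at 9.80. Usp17lb had 1.48 and 1.39 CPM in the serum return against 0.142 and 0.103 CPM in serum, that is, 71 reads against 5. It had 5 reads in first 2i, 1 in long 2i and 109 in second 2i, with second 2i 23.3-fold higher than first 2i (adjusted p = 2.55e-07). The homeobox gene Obox6 had 60 reads in the serum return against 11 in serum, and 121 in first 2i, 3 in long 2i and 130 in second 2i. Long 2i differed from first 2i for Obox6 (adjusted p = 1.26e-08). Among 18 markers of a rare 2-cell-like state, 4 that met the ratio and the minimum level were left out by symbol, Zscan4d among them, and none was a member. Of 10 such markers tested, both serum return libraries were above both serum libraries in 9 and below in 1. Over all tested genes these shares were 35.8% and 28.6%. The sum of the 18 markers was lower, at 272 to 290 CPM in the serum return and 304 to 341 CPM in serum. Zscan4d had 2.77 and 1.85 CPM in the serum return against 0.0945 and 0.0515 CPM in serum. The same marker was at 0 in long 2i and at 4.07 and 3.31 CPM in second 2i, and the part of such cells in the levels of these members was not tested.

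**Figure D5:**
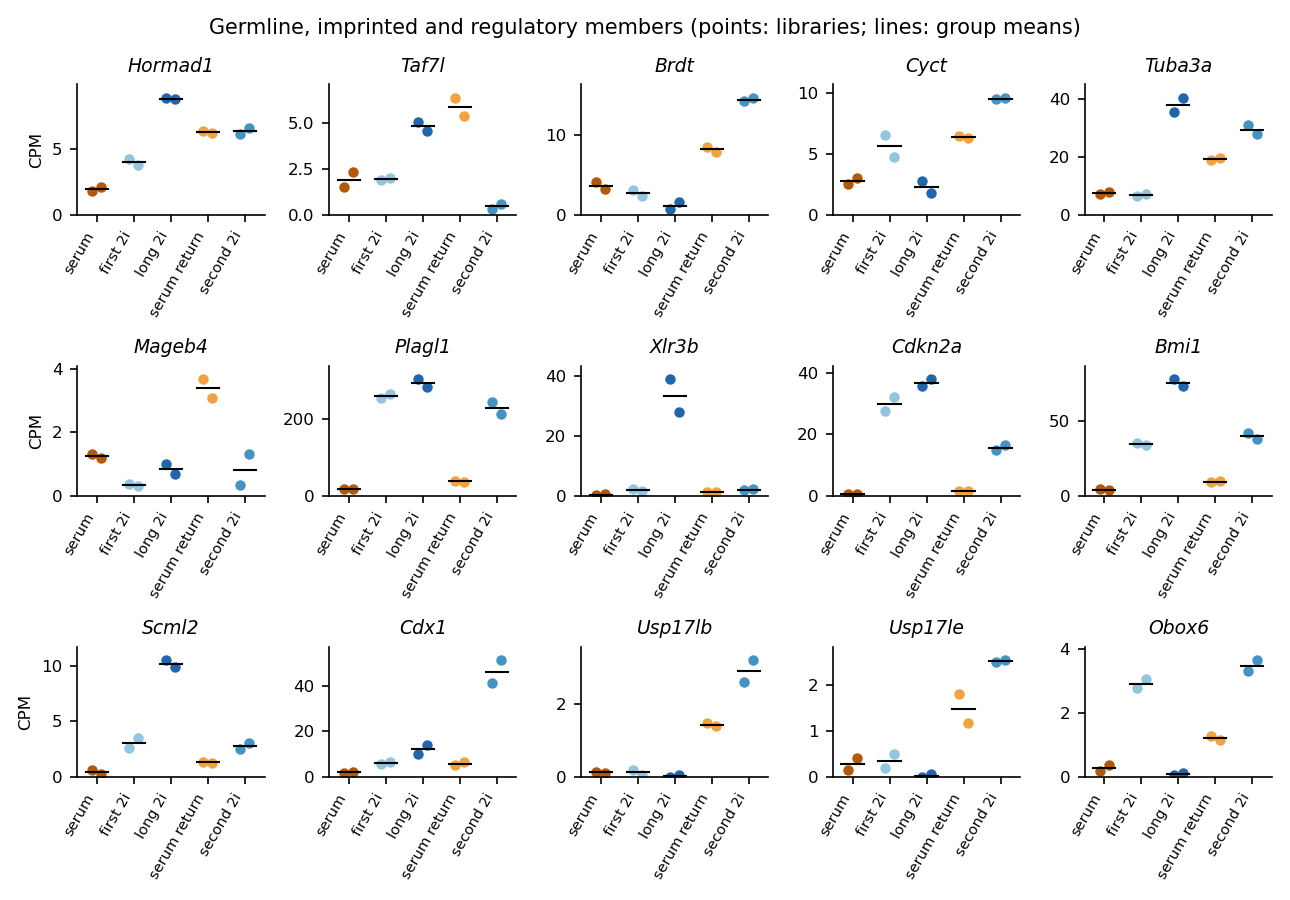
CPM (linear axes from 0) of 15 germline, imprinted, early-embryo and regulatory members, a panel for each gene, with a point for every library and a line for the mean of its group. Brdt is highest in second 2i, Xlr3b in long 2i, and Plagl1, Bmi1 and Cdkn2a are higher in all 2i groups than in the serum return.

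In 27 members the serum return libraries lay below all libraries grown last in 2i. Since the rule put the serum return above serum, its place between serum and 2i was fixed by how these members were picked. Plagl1, an imprinted zinc finger gene, had 39.1 and 35.8 CPM in the serum return against 18.1 and 18.0 CPM in serum. Its levels of 257 and 267 CPM in first 2i, 305 and 284 CPM in long 2i and 245 and 214 CPM in second 2i were far above both. Second 2i was lower than long 2i (log2 fold change -0.35 ± 0.06, adjusted p = 7.18e-05). Cdkn2a, which encodes the cell-cycle inhibitors p16Ink4a and p19Arf, had 1.66 and 1.48 CPM in the serum return against 0.520 and 0.618 CPM in serum. It had 27.8 and 32.3 CPM in first 2i, 35.8 and 37.9 CPM in long 2i and 14.8 and 16.6 CPM in second 2i, with no overlap between groups. Second 2i was lower than first 2i by a log2 fold change of -0.92 ± 0.10 (adjusted p = 5.33e-07). Bmi1, a Polycomb repressive complex 1 subunit that represses Cdkn2a in other cells, had 9.26 and 9.63 CPM in the serum return against 4.21 and 3.91 CPM in serum. It had 35.3 and 34.1 CPM in first 2i, 77.7 and 73.1 CPM in long 2i and 41.8 and 38.1 CPM in second 2i, and was 2.17-fold higher in long than in first 2i (adjusted p = 1.11e-10). Bmi1 and, in the next paragraph, Scml2, Ddr2, Snap91 and Rab38 were chosen after their values were seen.

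Xlr3b, an imprinted X-linked gene with close copies that may share its reads, had 60 reads in the serum return against 14 in serum. Long 2i held 1176 reads, against 84 in first 2i and 75 in second 2i, and was 16.4-fold higher than first 2i (adjusted p = 1.67e-10). Scml2, an X-linked Polycomb-associated gene of the germline, was likewise highest in long 2i, 3.32-fold above first 2i (adjusted p = 1.05e-07). Ddr2, a collagen receptor kinase, had 3.03 and 2.83 CPM in the serum return against 1.04 and 1.08 CPM in serum. It had 23.8 and 23.1 CPM in first 2i, 15.8 and 13.5 CPM in long 2i and 59.0 and 53.3 CPM in second 2i, which was 2.41-fold higher than first 2i (adjusted p = 1.08e-09). Klhdc7a and Gulp1, an engulfment adaptor gene, were lower in long than in first 2i, by log2 fold changes of -0.74 ± 0.12 (adjusted p = 2.71e-05) and -2.03 ± 0.15 (adjusted p = 3.32e-10). Their serum return levels were 2.59 and 2.41 CPM for Klhdc7a, against 0.520 and 0.721 CPM in serum, and 3.10 and 3.43 CPM for Gulp1, against 0.898 and 0.669 CPM in serum. Snap91, a clathrin assembly protein gene, had 1.58 and 1.20 CPM in the serum return, against 0.189 and 0.566 CPM in serum, and at least 11.7 CPM in every library grown last in 2i. Rab38 was between 16.5 and 18.4 CPM in all 6 of those libraries, with no call between 2i groups (adjusted p between 0.465 and 0.939), and had 1.94 and 1.85 CPM in the serum return and 0.756 and 0.721 CPM in serum.

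Cdx1, a caudal-type homeobox gene and the member in a list of 22 Wnt targets, had 5.01 and 6.35 CPM in the serum return against 1.75 and 2.21 CPM in serum. It had 5.74 and 6.32 CPM in first 2i, 10.2 and 14.0 CPM in long 2i and 41.1 and 51.2 CPM in second 2i, a stepwise order in which first 2i overlapped the serum return. Second 2i was 7.72-fold higher than first 2i (adjusted p = 2.15e-10) and 3.85-fold higher than long 2i (adjusted p = 3.05e-09). Of the 20 tested genes of that list, both serum return libraries lay above both serum libraries in 4, or 3 of the 19 that are no members. They lay below in 7. The shares over all tested genes were 35.8% and 28.6%. A second gene of the list met the ratio and the minimum level and was left out by symbol. Its place above serum, like that of Cdx1, was therefore fixed by the ratio. No member stood in the lists of DNA methylation machinery, interferon response, clustered protocadherins, Y-linked genes, glutathione and xenobiotic metabolism, pluripotency factors, formative epiblast genes or ERK targets, and none in a marker list, from which 2 primitive endoderm genes and the 4 2-cell-like genes were left out by symbol. Having no member does not mean that a list stayed level. Both serum return libraries lay above both serum libraries in 15 of 19 tested protocadherins, with a median log2 ratio of 0.57. They did so in 6 of 7 tested Y-linked genes, against 35.8% of all tested genes. They lay below in 0 of either list, against 28.6% of all tested genes.

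In other members the serum return exceeded every library of the other groups. The adhesion receptor gene Gpr133 had 16.2 and 17.0 CPM in the serum return against 5.43 and 5.71 CPM in serum. It had 3.76 and 3.53 CPM in first 2i, 0.416 and 0.532 CPM in long 2i and 4.67 and 4.73 CPM in second 2i, and was 9.84-fold higher in second than in long 2i (adjusted p = 8.29e-10). The ubiquitin ligase gene Trim52 had 8.43 and 7.41 CPM in the serum return against 1.75 and 1.70 CPM in serum, and no 2i library exceeded 4.22 CPM. Rmrp, the RNA of RNase MRP, had 2.99 and 5.37 CPM in the serum return against 0.756 and 0.566 CPM in serum. Its serum return libraries lay far apart, with replicate 1 close to the highest 2i library at 2.66 CPM, and no 2i comparison was called (adjusted p between 0.543 and 0.98). Gpr133 was chosen after its values were seen.

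Myo1f was named by rule, while Cd37, Dpp4, Lyn and Itgam were chosen after their values were seen, and no list holds them. Myo1f, a leukocyte myosin gene, had 10.3 and 10.1 CPM in the serum return against 4.25 and 4.58 CPM in serum. It had 10 reads in first 2i, 5 in long 2i and 177 in second 2i, and was 19.4-fold higher in second than in first 2i (adjusted p = 1.3e-09). The tetraspanin gene Cd37 had 12.5 and 12.3 CPM in the serum return against 6.52 and 4.94 CPM in serum, and was 5.34-fold higher in second than in first 2i (adjusted p = 1.93e-07). Dpp4, a cell-surface peptidase gene, had 50.3 and 47.6 CPM in the serum return against 17.0 and 17.3 CPM in serum. It had 26.2 and 25.7 CPM in first 2i, 5.06 and 6.60 CPM in long 2i and 58.9 and 55.7 CPM in second 2i. Second 2i exceeded every other library and was 2.23-fold higher than first 2i (adjusted p = 1.61e-09), and the log2 fold change of long against first 2i was -2.15 ± 0.11 (adjusted p = 1.33e-12). Lyn, a Src-family kinase gene, had 774 reads in the serum return against 281 in serum, and all 2i libraries were higher still, at 17.4 CPM or more. The integrin gene Itgam had 3.60 and 4.54 CPM in the serum return against 1.13 and 1.18 CPM in serum. The list of 14 blood and endothelial markers had no member. Its sum was 176 to 179 CPM in the serum return and 167 to 183 CPM in serum. Of its 10 tested genes, both serum return libraries lay below both serum libraries in 6 and above in 2. The shares over all tested genes were 28.6% and 35.8%. The median log2 ratio of the 10 genes was -0.30. The leukocyte marker Ptprc had 0.036 CPM in serum return replicate 1, 0 in replicate 2, and 0 in serum, first 2i and second 2i. In long 2i Ptprc was not at 0, so its trace was not particular to the serum return.

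Arl14ep, Dzip3 and Tenm3 stood beside stress-response genes among the 8 named members with the most serum return reads. Arl14ep had 119.8 and 116 CPM in the serum return against 63.4 and 63.6 CPM in serum, and every 2i library lay between 61.9 and 74.8 CPM. Its calls were small and not stable: the lower level in long than in first 2i (adjusted p = 0.0127) was lost without first 2i replicate 1 (0.206) or long 2i replicate 2 (0.0557). The higher level in second than in long 2i (adjusted p = 0.0365) was lost with DESeq2 (0.0729) and without long 2i replicate 1 (0.0797), long 2i replicate 2 (0.11) or second 2i replicate 1 (0.215). Dzip3, a ubiquitin ligase gene, had 78.9 and 75.5 CPM in the serum return against 41.5 and 37.5 CPM in serum. All its 2i libraries were above serum, and long 2i was 1.28-fold higher than first 2i (adjusted p = 5.6e-05). Tenm3, a teneurin adhesion gene, had 64.0 and 63.3 CPM in the serum return against 31.5 and 30.6 CPM in serum. It had 119 and 129 CPM in first 2i, 61.2 and 61.1 CPM in long 2i and 109.7 and 108 CPM in second 2i, so that long 2i and the serum return were close together. The log2 fold change of long against first 2i was -1.02 ± 0.06 (adjusted p = 8.99e-12).

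Members with a high ratio but few reads are less certain. Prrg1 had 87 reads in the serum return against 12 in serum, a ratio of 4.70, and its first 2i libraries lay far apart at 2.59 and 1.03 CPM. It was called lower in long than in first 2i (adjusted p = 0.00194), but not without first 2i replicate 1 (0.119). Efcab4b had 60 reads in the serum return against 9 in serum, and 4, 1 and 2 reads in first, long and second 2i. Apod, an apolipoprotein of the lipocalin family, had 4.57 and 3.75 CPM in the serum return against 0.992 and 0.875 CPM in serum. It was lower in long than in first 2i by a log2 fold change of -1.52 ± 0.29 (adjusted p = 0.000147). Med12l, a paralogue of a Mediator subunit gene, had 93 reads in the serum return against 29 in serum, and was lower in long than in first 2i by a log2 fold change of -2.78 ± 0.23 (adjusted p = 3.81e-09). Of the 169 members, 19 carry model or clone names, or are ribosomal protein or histone genes, and were not named by rule.

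Few members lay next to each other in the genome. All 169 were matched by symbol to the RefSeq gene table (GRCm38.p6, used only for names and neighbours, since the files were counted on mm9). The annotated order held only 2 runs of adjacent members, Usp17le with Usp17lb and Tmem136 with Pou2f3. The X chromosome held 13 members, 7.69%, against 3.59% of the tested genes, and among them were Efhc2, Xlr3b, Scml2, Taf7l and Mageb4. The median log2 ratio of serum return to serum over all tested X-linked genes was 0.10. A promoter in the table was found for 136 members, whose median number of CpG dinucleotides per 250 bases was 10, against 15 over the tested genes and 6 over all promoters.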

How the data were processed

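The authors deposited raw counts of reads per gene for each library, with 5 summary rows. The submitters' processing notes list the mm9 build and the tools HTSeq (0.5.4p5), TopHat2 (2.0.4), CASAVA (1.8.2) and DESeq2. The counter's strand setting is not given in the sources used here, so overlapping and antisense genes are uncertain, as are multi-copy genes (Usp17l, Xlr3b, Pramel1, Tuba3a, Rpl39l, Obox6), since 33.4% to 36.5% of reads were not uniquely aligned.

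Summary rows were left out and CPM was computed from the rest. edgeR 4.0.16 (R 4.3.3) fitted all 10 libraries with TMM factors, the default filter on low counts and the robust quasi-likelihood test, with Benjamini-Hochberg adjustment over 14220 genes and a threshold of 0.05. There were 5 residual degrees of freedom. DESeq2 1.42.0, another scaling, no filter, a fit of the 6 libraries grown last in 2i, a replicate block and leaving out each library were alternatives, and the script was tested on simulated counts. The ± values of log2 fold changes are standard errors. Where a group had 3 reads or fewer in all, no fold is given.

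The members and lists were chosen with earlier results of these data known. Genes are named by rank of ratio, reads or fold change, by list membership or by nearness to the threshold, leaving out model, ribosomal and histone names; others are said to be chosen later.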

Additional observations from a re-analysis of the deposited data

How the results depend on the processing

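The number of members depended on the rule. It was 405 with a ratio of 1.5, 39 with a ratio of 2.5 and 69 with a minimum of 5 CPM. With 1 serum return or serum library left out it was between 249 and 301. Leaving a library out can only loosen the rule, so that all 169 stayed was fixed in advance. With TMM-scaled CPM, 155 genes passed. Counts of members called in the 3 comparisons of 2i groups stayed within 1.5 times the reported ones under every alternative: the 81 members lower in long than in first 2i became 75 with DESeq2 and 74 to 77 without 1 library. Stress-response members called higher in long than in first 2i, 0 as reported, were 0 to 1 without 1 library, an alternative added after the data were seen.

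No named gene changed direction. Over genes and settings, 22 calls of long against first 2i, 29 of second against first 2i and 16 of second against long 2i were lost, and 2, 4 and 1 were gained. Deviations of same-numbered libraries correlated at 0.0994 to 0.168, over 0.1 in 9 of 10 pairs of groups. The limit had to be passed by every pair, and the labels do not say what the numbers (title prefixes LEM and MLE) mark, so pairing was not assumed, though it was missed narrowly. With the replicate block, 84 members were lower and 36 higher in long than in first 2i, 45 higher and 37 lower in second than in first 2i, and 84 higher and 35 lower in second than in long 2i. With 2 libraries a group, low genes are the least certain: 52 members were under 2 CPM in a serum return library.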
